A study of Mus musculus with 4 samples.

Results

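The genes described here encode 10 chaperones and co-chaperones that work outside the endoplasmic reticulum. They are the Hsp70 Hspa8, the Hsp110 proteins Hspa4 and Hsph1, the Hsp90 proteins Hsp90aa1 and Hsp90ab1, the Hsp90 co-chaperones Chordc1 and Ahsa1, and the mitochondrial chaperones Hspa9, Hspd1 and Hspe1. They were taken by gene symbol from the 10790 genes of the deposited table. All 10 were found and all 10 passed the filter on low values. Whole lenses of mice at postnatal day 4 were compared between Tdrd7 -/- animals and wild type control animals. Each genotype had 2 libraries, and each library held RNA pooled from 15 lenses. TDRD7 is a Tudor-domain protein of RNA granules that is mutated in congenital cataract, and the series title names the small heat shock protein Hspb1 as a gene it controls. The sources used here do not name the allele, strain or sex of the mice. The p-values measure the spread between pools of lenses. With 2 libraries per genotype, limma takes much of that spread from other genes of like level. Its prior has 11.1 degrees of freedom beside 2 residual.

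Hsp70 proteins bind exposed stretches of unfolded protein and release them in cycles driven by ATP, and Hsp110 proteins act on them as nucleotide exchange factors. Hsp90 proteins receive partly folded clients, such as kinases and receptors, with co-chaperones that set the pace of their ATP cycle. In the mitochondrial matrix, Hspa9 pulls imported chains through the membrane and the chamber of Hspd1, closed by its lid Hspe1, folds them. Many of these genes are switched on by heat shock factors, which bind repeats of the units TTC and GAA in alternating order, called heat shock elements. In the lens, Hsf4 is the main such factor, and fiber cells keep their proteins for life without replacing them.

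The promoters are shown here because heat shock elements are the sequence feature best known to be shared by such genes, and they were searched after the values were seen. RefSeq windows (GRCm38.p6) from 250 bases before to 50 bases after a gene's start were at hand for 6 of the 10 genes, in 8 windows, and no window was read for Hspa8, Hsp90aa1, Hsp90ab1 or Hspa9. The motifs searched were TTCNNGAANNTTC and GAANNTTCNNGAA, each the reverse complement of the other, so that both strands were covered and overlapping matches were merged. At least 1 match of these 3-unit motifs was found for Hsph1, Chordc1, Hspd1 and Hspe1, and none for Hspa4 or Ahsa1. Of all 32851 windows, 0.603% held such a match. The 4 stretches are shown 5′ to 3′ on the gene's own strand, with the run of units in capitals.
Hspe1, chr1:55088053-55088082, plus strand: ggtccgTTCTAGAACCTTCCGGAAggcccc
Hspd1, chr1:55088053-55088082, minus strand: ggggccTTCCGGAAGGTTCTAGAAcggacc
Chordc1, chr9:18292260-18292289, plus strand: ccgGAACGTTCGGGAAAATTCCTGAAgcag
Hsph1, chr5:149636279-149636308, minus strand: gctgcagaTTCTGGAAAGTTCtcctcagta

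Hspd1 and Hspe1 stand head to head on chromosome 1, and their stretch is the same DNA read from opposite strands. It holds 4 units, from position -89 to -72 relative to the RefSeq start of Hspe1, and it lies inside a 5′ UTR exon of 1 annotated Hspd1 transcript. The Chordc1 run holds 5 units over 23 bases, from position -4 to 18 relative to the RefSeq start, inside a 5′ UTR exon in GENCODE M21. The other Hspd1 window held no match. Windows with 4 units in a row were rare, at 8 of 32851, and 3 of these 8 belonged to Hspd1, Hspe1 and Chordc1. The Hspd1 and Hspe1 windows among them count the same stretch. The Chordc1 window was the only 1 of the 32851 with 5 units. Hsph1 holds 3 units after its start, within 5′ UTR exons of some transcripts. A match describes the letters only, and binding of a factor was not measured.

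All levels are scaled reads, that is, reads of a gene over a factor that is the same for all genes of a library, and long genes are not scaled down. Summed over the table there were an inferred 41096488 and 42767535 reads for control and 39080159 and 33920522 for null libraries, which makes the null libraries the shallower ones. These read numbers are inferred from steps in the values. They rest on genes of at least 5 to 21 inferred reads in each library, so the value of a single read was not seen directly and the numbers are uncertain to that extent. If the inference holds, the 10 genes rested on 1177 to 95147 reads each per library, with a counting error of at most 2.91% (SD), which covers counting only. Tdrd7 itself was at 1188 and 972 in control and at 165 and 96.6 in null libraries, which matched the labels. The tissue also matched its label: 11 of 12 lens fibre markers summed to between 280907 and 288210 in control and between 260127 and 292454 in null libraries, and 0 of the 11 passed limma's test (0 at an unadjusted p under 0.05). Lens epithelium markers (6 of 6) summed to 297 and 309 in control and 309 and 312 in null libraries. This sum covers shifts both ways, with 2 called higher (Gja1 and Top2a, log2 fold changes 0.33 and 0.29) and 1 lower (Foxe3, -0.43). Markers of other cells were low, at 20.5 and 11.7 against 14.8 and 21.5 for 7 endothelial genes (0 called by limma and 0 at an unadjusted p under 0.05), 47.3 and 37.3 against 32.0 and 35.7 for 4 pericyte genes (2 called lower) and 16.0 and 16.9 against 18.6 and 17.3 for 2 genes of ciliary body and iris (0 called by limma and 0 at an unadjusted p under 0.05). Of the epithelium markers and of the pericyte markers 50% each were called, against 18.0% of all tested genes. No gene of the macrophage, blood, retina or muscle lists was tested.

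Set against transcript length, the 10 genes spanned a wide range of levels. Hsp90ab1, the constitutive cytosolic Hsp90, stood far above the rest at 874 ± 27.2 scaled reads per kb in control lenses (SD, n = 2) and took 60.1% of the summed level per kb of the 10 genes in both control libraries. Ahsa1, the activator of the Hsp90 ATPase, followed at 135 ± 6.70, and Hspa8, the constitutive Hsp70, at 130 ± 3.66 scaled reads per kb. The control ranges of Ahsa1 and Hspa8 overlapped, while those of every other pair of neighbours in this order did not. Hspe1 came next at 91.1 ± 8.90, before Hsp90aa1, the heat-inducible cytosolic Hsp90, at 70.8 ± 0.382 and Hspa9 at 58.6 ± 1.26. Hspd1 lay at 41.7 ± 0.432 and Hspa4 at 32.1 ± 0.116. Chordc1 at 14.3 ± 0.520 and Hsph1 at 7.45 ± 0.0190 scaled reads per kb were the lowest. In null lenses the 2 Hspa8 libraries, at 130 and 80.1, lay on either side of Hspe1, at 106 and 109. Together the 10 genes took 0.345% and 0.351% of all scaled reads in control and 0.343% and 0.354% in null libraries.

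**Figure D1:**
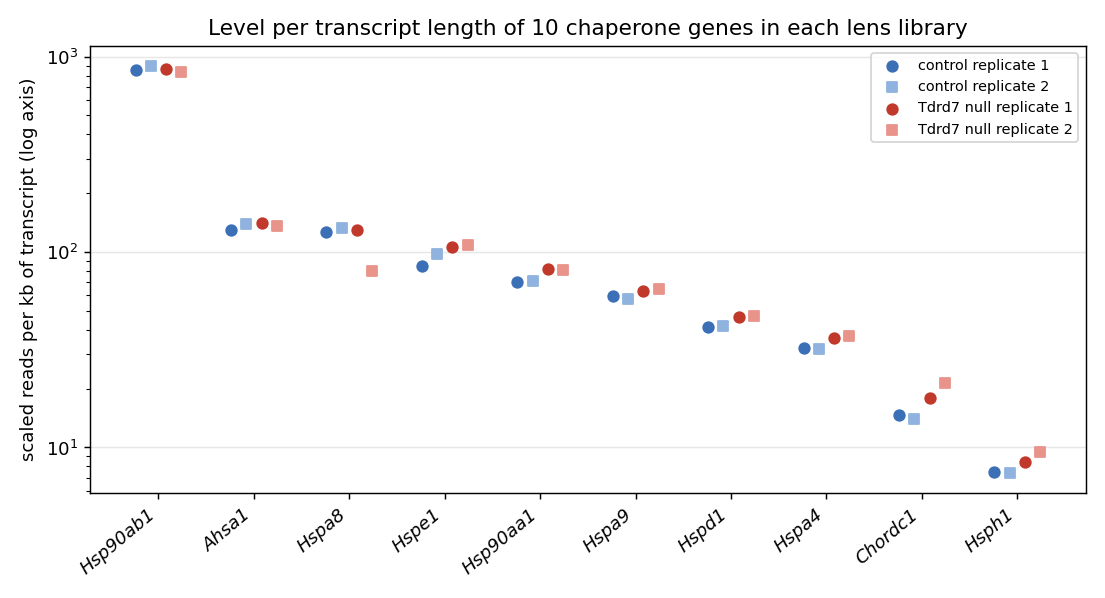
Scaled reads per kb of transcript (log axis) of the 10 genes in each of the 4 libraries, 1 point per library, ordered by the control mean. Hsp90ab1 sits far above the others at about 874 per kb in control, Hsph1 is lowest, and Hspa8 is the gene whose 2 Tdrd7 null points, 130 and 80.1 per kb, lie farthest apart.

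The comparison of Tdrd7 null with control lenses asked whether loss of TDRD7 goes with a change in the RNA of these chaperones. Of the 10 genes, 6 rose in null lenses (Chordc1, Hsph1, Hspe1, Hsp90aa1, Hspa4 and Hspd1), 0 fell and 4 did not pass, at a limma adjusted p under 0.05 over the 10696 tested genes. At an unadjusted p under 0.05 there were 8, of which Hspa8 was lower, where 3538 of all 10696 genes were at that level. Over all tested genes 18.0% were called, 10.1% higher and 7.88% lower. The rises were small, with fold changes of the means between 1.12 and 1.37. The median log2 fold change of the 10 genes was 0.18 against -0.01 over all tested genes. In whole lenses, fewer cells of a type and less RNA per cell cannot be told apart. Groups did not overlap for 7 of the 10, all with null above control, where 30.2% of all tested genes lay that way and 31.3% lay the other way.

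The calls were lost when trends on GC content and length were removed together. Across the transcriptome, AT-rich transcripts were higher and GC-rich transcripts lower in null libraries. Once the trends on transcript GC content and length were removed from each library, 0 of the 10 genes passed limma (4 at an unadjusted p under 0.05, where 1992 of all 10656 genes were), and 3.28% of all genes were called, 1.95% higher and 1.33% lower. The median of the 10 was then 0.07. Without an intensity trend in the prior 0 of the 10 passed limma. With 1 library set aside, its group keeps a lone library that is assumed to vary like the other group. On that footing 1 of the 10 was called in the absence of control replicate 1, 2 in that of control replicate 2 and 2 in that of Tdrd7 null replicate 2. Without Tdrd7 null replicate 1, 5 were called higher and 1 lower. Rescaling to equal totals without the crystallins left Chordc1, Hsph1, Hsp90aa1 and Hspe1 called, 4 in all, and turned the split of all calls from 1077 higher and 843 lower to 768 higher and 1262 lower.

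**Figure D2:**
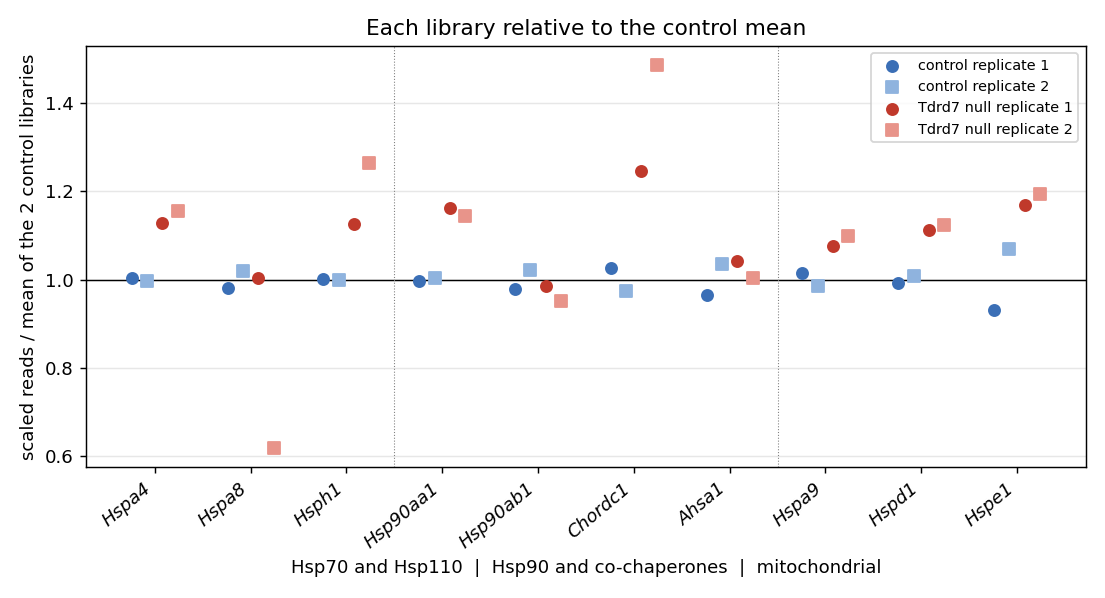
Scaled reads of each gene in each library divided by the mean of its 2 control libraries, 1 point per library, with the genes grouped by role. Both Tdrd7 null points lie above both control points for 7 genes, most widely for Chordc1, and the Hspa8 point of Tdrd7 null replicate 2 lies far below all others.

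Among the cytosolic Hsp70 and Hsp110 genes, Hspa4 (ENSMUSG00000020361, chr11:53259814-53300457) encodes an Hsp110 that recharges Hsp70 with ATP. It was at 149 and 148 scaled reads in control and at 167 and 172 in null libraries. Both null libraries lay above both control libraries by more than the replicates differed. Hspa4 rose by 0.19 on the log2 scale (SE 0.0506, limma adjusted p = 0.0219). It kept most of its size with the GC and length trends removed, at 0.16 (SE 0.0440), but did not pass (limma adjusted p = 0.0695). The call was also lost without control replicate 1 (0.20, limma adjusted p = 0.107), control replicate 2 (0.19, 0.119) or Tdrd7 null replicate 2 (0.17, 0.0969).

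Hsph1 (ENSMUSG00000029657, chr5:149614287-149636376) encodes the heat-inducible Hsp110, and its promoter stretch with 3 units is shown above. It was at 28.4 and 28.3 scaled reads in control and at 31.9 and 35.8 in null libraries. The control libraries were nearly equal, and both null libraries lay above them. On the log2 scale Hsph1 rose by 0.25 (SE 0.0677, limma adjusted p = 0.0252). Removing the trends left 0.23, which missed the threshold (limma adjusted p = 0.065). The call was also lost without control replicate 1 (0.25, limma adjusted p = 0.12), without control replicate 2 (0.24, 0.126) and without Tdrd7 null replicate 2 (0.17, 0.196).

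Hspa8 (ENSMUSG00000015656, chr9:40800984-40805200) encodes the constitutive cytosolic Hsp70, which also uncoats clathrin vesicles and feeds chaperone-mediated autophagy. It was at 304 and 317 scaled reads in control and at 311 and 192 in null libraries. Tdrd7 null replicate 1 lay between the control libraries, and Tdrd7 null replicate 2 lay far below all 3. Its log2 fold change of -0.34 (SE 0.145) missed the threshold at a limma adjusted p of 0.118. It was 0.00 without Tdrd7 null replicate 2 (limma adjusted p = 0.974) and -0.69 without Tdrd7 null replicate 1, where it passed (limma adjusted p = 6.15e-07). The fit without Tdrd7 null replicate 1 has the low library as its only null library and takes its spread from the control libraries and the prior, so its p does not support a difference. GENCODE M21 lists 5 pseudogenes that match the Hspa8 transcript over at least 100 bases at 95% identity or more, and 0 of them were in the table. How reads of such copies were assigned was not tested, and this also holds for Hsp90aa1 and Hspd1, with 3 such pseudogenes each. At the same limits, genes other than pseudogenes matched Chordc1 (9), Hspe1 (2), Hspa8 (1) and Ahsa1 (1), and their reads were not examined either. The same holds for genes named below, such as Dnaja1 and Ppid with 3 such pseudogenes each and Hspb1 with 1.

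Of the cytosolic Hsp90 pair, the heat-inducible form was higher in null lenses and the constitutive form was not called. Hsp90aa1 (ENSMUSG00000021270, chr12:110690605-110702728) was at 231 and 233 scaled reads in control and at 270 and 266 in null libraries. The groups lay apart by many times the gap between replicates. Hsp90aa1 rose by 0.21 on the log2 scale (SE 0.0505, limma adjusted p = 0.016), and with the GC and length trends removed it shrank to 0.08 (limma adjusted p = 0.35). It also did not pass without control replicate 1 or 2 (0.20 and 0.21, limma adjusted p = 0.103 and 0.0902).

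Hsp90ab1 (ENSMUSG00000023944, chr17:45567775-45573271) was at 2154 and 2250 scaled reads in control and at 2172 and 2094 in null libraries. The groups overlapped. Its log2 fold change was -0.05, with a 95% confidence interval from -0.19 to 0.10 (limma adjusted p = 0.67), and it was not called in any of the 18 alternatives. The ratio of Hsp90aa1 to Hsp90ab1, set per length, was 0.0825 and 0.0796 in control and 0.0956 and 0.0974 in null libraries. This ratio does not depend on how libraries were scaled, and its null values lay above its control values. The log2 difference was 0.25 (exact permutation p = 0.333, two-sided, 0.444 adjusted over the 4 ratios computed), and 0.333 is the smallest p that 2 libraries against 2 can give. Leaving out each library in turn gave 0.23 to 0.28. The ratio was not freed of the GC and length trends, and with them removed the log2 fold changes of Hsp90aa1 and Hsp90ab1 were 0.08 and -0.03.

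Chordc1 (ENSMUSG00000001774, chr9:18292267-18314000), also called morgana, encodes a zinc-binding Hsp90 co-chaperone, and its promoter window holds the 5-unit run shown above. It was at 32.4 and 30.8 scaled reads in control and at 39.3 and 47.0 in null libraries. Both null libraries lay above control, with Tdrd7 null replicate 2 the higher. Chordc1 rose by 0.43 on the log2 scale (SE 0.0769, limma adjusted p = 0.00375), the largest of the 10, and without each of the 4 libraries in turn it was 0.31 to 0.56 and stayed past the threshold, with 1 library left in a group each time. Its longest transcript is also the most AT-rich of the 10, at 35.7% GC, and with the GC and length trends removed the value was 0.20 and missed the threshold (limma adjusted p = 0.14). The gene ends nearer to its start in the deposited table than in GENCODE M21. With GC content and length read within the bounds of the table the value was 0.18 (limma adjusted p = 0.191).

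Ahsa1 (ENSMUSG00000021037, chr12:87266746-87273997), whose window held no 3-unit motif, was at 173 and 186 scaled reads in control and at 187 and 180 in null libraries. The groups overlapped. For Ahsa1 the log2 fold change was 0.03 with a 95% confidence interval from -0.08 to 0.15 (limma adjusted p = 0.704), and its sign turned in 4 of 18 alternatives, rescaling without the crystallins among them (-0.01). The ratio of Ahsa1 to Hsp90ab1 per length was 0.153 and 0.157 in control and 0.163 and 0.163 in null libraries. The log2 difference was 0.08 (exact permutation p = 0.333, two-sided, 0.444 adjusted). This ratio too was not freed of the GC and length trends. With them removed the log2 fold changes of Ahsa1 and Hsp90ab1 were -0.04 and -0.03.

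The 3 mitochondrial chaperones had null libraries above control libraries, as did 30.2% of all tested genes. Of the 3, 2 were called higher, as were 10.1% of all tested genes. With the GC and length trends removed 0 of the 3 passed limma (0 at an unadjusted p under 0.05). Hspd1 (ENSMUSG00000025980, chr1:55077835-55088243), the Hsp60 chamber, was at 100.4 and 102 scaled reads in control and at 113 and 114 in null libraries. Hspd1 rose by 0.16 on the log2 scale (SE 0.0512, limma adjusted p = 0.0465), close to the threshold. The call was lost without any 1 of control replicates 1 and 2 and Tdrd7 null replicates 1 and 2, at 0.15, 0.17, 0.17 and 0.15 (limma adjusted p = 0.196, 0.152, 0.0814 and 0.159). With the GC and length trends removed it was 0.09 (limma adjusted p = 0.312).

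Hspe1 (ENSMUSG00000073676, chr1:55088132-55091307), the Hsp10 lid, was at 65.6 and 75.4 scaled reads in control and at 82.4 and 84.2 in null libraries. The control libraries differed more than the null libraries did, and all null values lay above them. Hspe1 rose by 0.24 on the log2 scale (SE 0.0652, limma adjusted p = 0.0243). Without control replicate 1 it was 0.14 and without Tdrd7 null replicate 2 it was 0.23, and neither passed (limma adjusted p = 0.23 and 0.0751), while without control replicate 2 it was 0.34. With the trends removed it was 0.07 (limma adjusted p = 0.555), or 0.18 with GC content and length from the principal transcript within the bounds of the table (limma adjusted p = 0.0977). Hspd1 and Hspe1 share 112 nt of exonic sequence on opposite strands. Whether reads were counted by strand is not known here, so reads of the shared stretch may have gone to either gene.

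The neighbours Hspd1 and Hspe1 were both higher in null lenses, and their ratio was compared within each library. The ratio of Hspe1 to Hspd1 per length was 2.05 and 2.32 in control and 2.29 and 2.32 in null libraries. Only control replicate 1 stood apart, and the groups overlapped. The log2 difference was 0.08 (exact permutation p = 1, two-sided, and 1 adjusted over the 4 ratios), and without control replicate 1 it was -0.0076. The ratio of Hsph1 to Hspa8 was 0.0588 and 0.0563 in control and 0.0645 and 0.118 in null libraries. Its log2 difference of 0.60 (exact permutation p = 0.333, two-sided, 0.444 adjusted) was 0.17 without Tdrd7 null replicate 2 and 1.03 without Tdrd7 null replicate 1.

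Hspa9 (ENSMUSG00000024359, chr18:34937414-34954357), the mitochondrial Hsp70 also called mortalin, was at 181 and 176 scaled reads in control and at 192 and 196 in null libraries. The groups did not overlap, yet the difference did not pass. Hspa9 had a log2 fold change of 0.12 with a 95% confidence interval from 0.01 to 0.23 (limma adjusted p = 0.121), and 0.04 with the trends removed.

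**Figure D3:**
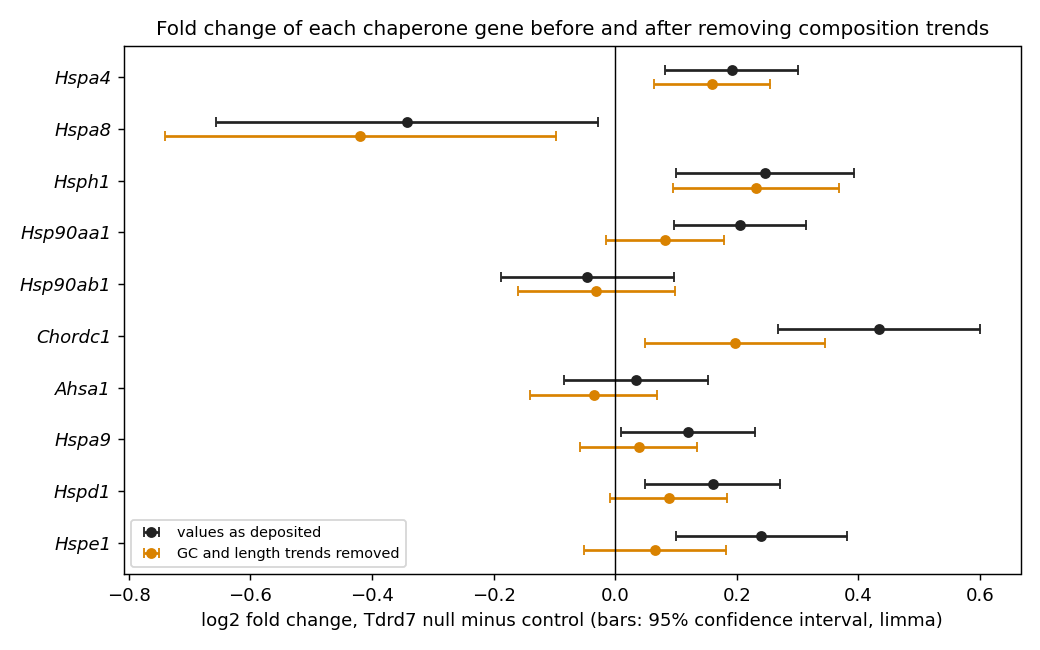
Log2 fold change (Tdrd7 null minus control) of each gene with its 95% confidence interval from limma, with values as deposited (black) and with the GC and length trends removed (orange). Hspa4 and Hsph1 keep most of their size, at 0.16 and 0.23, while Hsp90aa1, Chordc1 and Hspe1 shrink to 0.08, 0.20 and 0.07. The trends use the longest transcript, and the Hspe1 value depends on that choice.

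By the GC content of the longest transcript, 7 of the 10 genes fell in the class from 44% to 48%. They were Hspa4, Hspa8, Hsph1, Ahsa1, Hspa9, Hspd1 and Hspe1. In the principal transcript within the bounds of the table, GC content was 51.2% for Hspa8, 51.7% for Hspe1 and 52.4% for Ahsa1. By that transcript these genes leave the class. The median log2 fold change of the 2205 genes of the class from 44% to 48% was 0.06, and 11.5% of them were called higher. Chordc1 fell in the class under 40%, where the median was 0.22 over 610 genes and 43.4% were called higher. Hsp90aa1 fell between 40% and 44%, where the median was 0.15 over 1620 genes and 25.1% were called higher. Hsp90ab1 fell between 48% and 52%, where the median was -0.01 over 2268 genes. The part of each log2 fold change taken up by the fitted trends was 0.24 for Chordc1, 0.17 for Hspe1 and 0.12 for Hsp90aa1, and 0.03 and 0.01 for Hspa4 and Hsph1. For Hspe1 this part depends on the transcript used, as its trend-removed values given above differ. GC content and length were not removed separately, and the source of the trends was not tested.

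**Figure D4:**
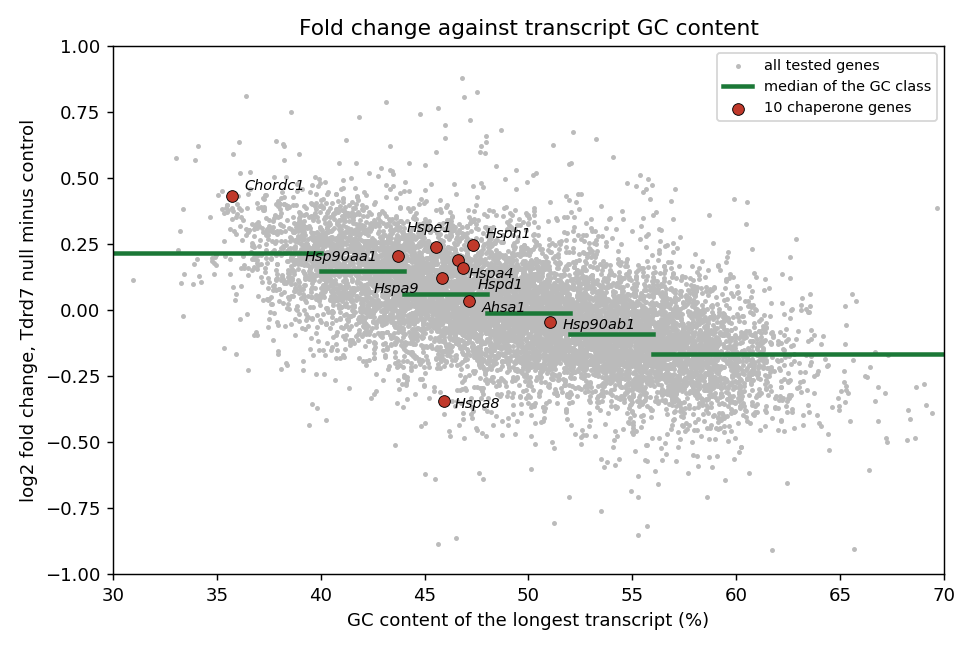
Log2 fold change against GC content of the longest transcript for all tested genes (grey, 8 lie outside the axes), with the median of each GC class (green) and the 10 chaperone genes (red). Medians step down from 0.22 under 40% GC to -0.17 above 56%, and Hsph1 and Hspa4 lie above the median of their class, Hspa8 far below it.

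The heat shock factors themselves included 1 called gene. Hsf4, the lens factor, fell from 194 and 196 scaled reads in control to 167 and 155 in null libraries. On the log2 scale Hsf4 fell by 0.27 (SE 0.0546, limma adjusted p = 0.00623), and with the GC and length trends removed it stood at -0.09 and missed the threshold (limma adjusted p = 0.349). Hsf1, the main factor of the stress response in most cells, stood at -0.13 and Hsf2 at 0.16, and neither passed (limma adjusted p = 0.308 and 0.26). Of 15 classical heat shock targets outside the 10 genes, 13 were tested. Hspa1a and Hspa1b, the most inducible Hsp70 genes, were not among the 10790 genes of the deposited table. Of the 13, 2 rose and 1 fell (23.1% called against 18.0% of all genes), with a median of -0.03. Dnaja1, an Hsp40 partner of Hsp70, rose by 0.34 and Cacybp, a protein that binds Siah1, by 0.32, and Hspb1 fell by 0.91 on the log2 scale. Dnaja1 (0.20, limma adjusted p = 0.0351) and Hspb1 (-0.77, 0.00571) also passed with the trends removed, and Cacybp did not (0.10).

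Partners of the Hsp70 and Hsp90 machines were called in both directions, as were 10.1% (higher) and 7.88% (lower) of all tested genes. Of 5 other Hsp70 genes tested, Hspa4l, an Hsp110 relative, rose by 0.21 (limma adjusted p = 0.0466), and the median was 0.02. Of 11 genes listed as Hsp70 co-factors 2 rose and 1 fell (27.3% called against 18.0% of all tested genes), with a median of -0.02. Of the 2, Hsbp1 is an Hsp70 co-factor by the list only. St13, which steadies Hsp70 bound to ADP, rose from 237 and 246 to 268 and 288 scaled reads (log2 fold change 0.20), and Hsbp1, a binder of heat shock factor 1, rose by 0.20. Stub1, the ubiquitin ligase CHIP that marks chaperone clients for degradation, fell from 94.8 and 96.8 to 85.7 and 78.6 (-0.22). Of 19 other Hsp90 co-chaperones 4 rose and 1, Stub1 again, fell (26.3% called), with a median of 0.04. The cyclophilin Ppid rose by 0.37, Cacybp by 0.32, the kinetochore adaptor Sugt1 by 0.28 and Ahsa2 by 0.25.

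With the GC and length trends removed 0 genes of these 3 lists passed limma, where 3.28% of all genes did. At an unadjusted p under 0.05 there were 0, 2 and 4. Ppid then stood at 0.21, Sugt1 at 0.15, St13 at 0.02 and Stub1 at -0.04. Of 16 other mitochondrial chaperones, import factors and proteases 2 rose and 0 fell, with a median of 0.05 (12.5% called against 18.0%). They were Yme1l1, a protease of the inner membrane (0.36), and Grpel1, the nucleotide exchange factor of Hspa9 (0.27). Grpel1 went from 23.2 and 26.3 scaled reads in control to 29.5 and 30.2 in null libraries, and with the trends removed it stood at 0.23 (limma adjusted p = 0.0841), when 0 of the 16 passed (4 at an unadjusted p under 0.05). The exons of Ahsa2, Stub1, Grpel1, Dnaja1, Cct8 and Hsp90b1 overlap those of a neighbouring gene by 100 nt or more, which leaves their values uncertain.

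Beside the 10 genes stand the chaperone families most like them. Of 18 chaperones of the endoplasmic reticulum 7 rose and 0 fell, with a median of 0.17. That was 38.9% called, against 18.0% of all tested genes. Hspa5, the Hsp70 of that compartment, rose from 162 and 175 to 213 and 225 scaled reads (log2 fold change 0.38), and Hsp90b1, its Hsp90, rose by 0.24. Of 8 subunits of the cytosolic chaperonin CCT 4 rose and 0 fell (50% called), with a median of 0.15. Of 15 listed DnaJ proteins 5 rose and 1 fell (40% called), with a median of 0.11. Among these, Cct8 rose by 0.30 and Dnajb4 by 0.40, and Dnajb12 fell by 0.19 on the log2 scale. With the trends removed 3 genes of the endoplasmic reticulum list rose, where 1.95% of all genes were called higher. They were Hspa5 (0.31, limma adjusted p = 0.00891), Pdia3 (0.18, 0.0449) and the Hspa5 partner Dnajb11 (0.24, 0.0199). Dnajb11 was named after its values were seen. Of the CCT subunits 0 then passed in limma (unadjusted, 3 had a p under 0.05). Of the DnaJ proteins Dnaja1 alone did. No test compared these lists with the 10 genes.

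**Figure D5:**
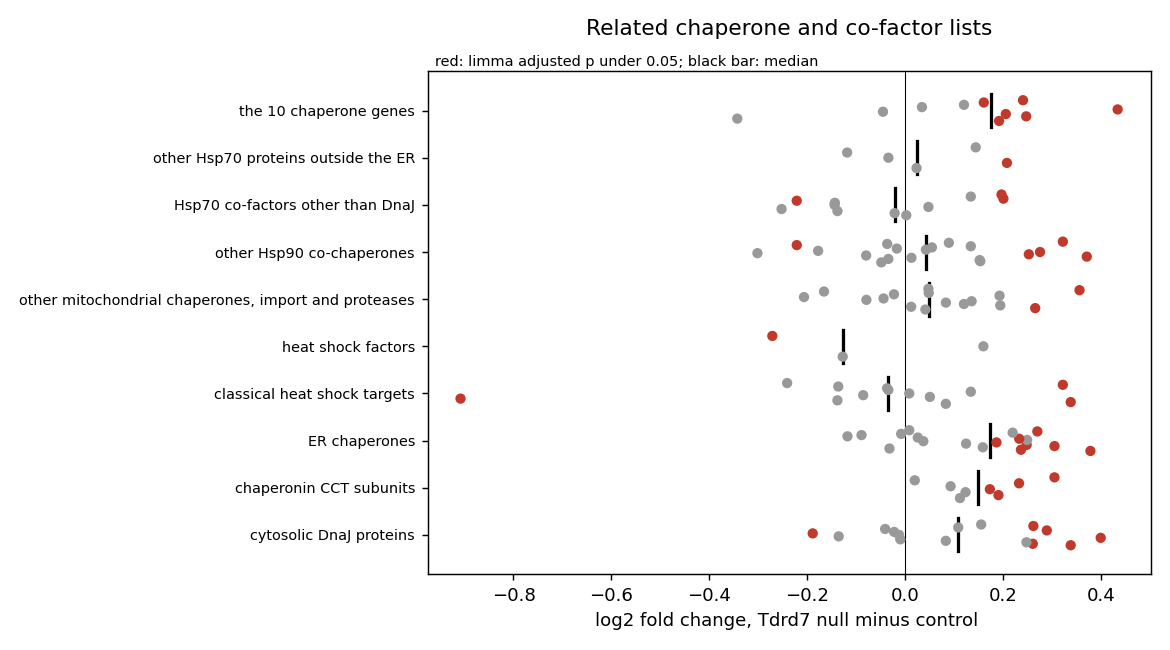
Log2 fold change (Tdrd7 null minus control) of each tested gene in the 10 chaperone genes and in 9 related lists, 1 point per gene, red where the limma adjusted p was under 0.05, with a black bar at the median. Medians are 0.18 for the 10 genes, 0.17 for chaperones of the endoplasmic reticulum, 0.15 for CCT subunits and 0.11 for DnaJ proteins, and Hspb1 lies apart at -0.91.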

How the data were processed

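Each gene had a single signal value per library in the deposited table. Per the submitters' processing notes Trimmomatic, TopHat2 2.0.9, Cufflinks and Cuffnorm were used with the mm10 (GRCm38) build. The counting tool, the scaling step and the use of strand are not stated there. Divided by a step shared by all genes of its library, each value came within 0.001 of a whole number, so the values were read as read counts divided by 1 factor per library, which the low values alone did not establish, where normalized values from Cuffnorm had been expected. No value column belonged to another sample.

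Values were analysed as log2(scaled reads + 1), a scale that understates the change of low genes, for genes with a mean of at least 1 (10696). Null and control libraries were compared in limma (version 3.58.1, under R 4.3.3) with a prior that follows intensity (11.1 degrees of freedom beside 2 residual), two-sided tests and Benjamini-Hochberg adjustment over all tested genes. Scripts were tested on simulated data with an assumed spread. There 42% of the 1.25-fold changes and 75.5% of the 1.5-fold changes were recovered, so small changes can be missed. Transcript GC content and length were those of the longest GENCODE M21 transcript, at hand for 10750 genes. Their trends were fitted and subtracted per library (natural splines, 5 degrees of freedom for each). Levels per kb used the principal transcript within the gene bounds of the table. The trimmed mean of M values was computed directly. Pseudogene copies were sought with blastn. Exact permutation tests ran over the 4 libraries.

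The 10 genes and all lists were chosen with earlier results of these data known. The search for heat shock elements was added after the table was read. Named genes are the 10, Tdrd7, Hspb1, the heat shock factors and, from each list, the called genes with the smallest p, up to 4 in each direction (the 2 with the smallest p where none was called), of which some are given by count. Alternatives were pseudocounts of 0.1 and 5, no filter or a mean of at least 5, 3 scalings, 2 other priors, the replicate number as a block, removal of the composition trends, an adjusted p under 0.1 and fits without each library in turn.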

Additional observations from a re-analysis of the deposited data

How the results depend on the processing

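A quasi-likelihood count test, planned for whole-number counts, was not run. Each value lay within 0.001 of a whole number of steps, but no gene of a single read was listed to show the step directly. All scalings, pseudocounts and filters tried kept the number of called genes, of all genes and of the 10, within 1.5 times. Without the intensity trend 16 genes of all and 0 of the 10 were called. With the GC and length trends removed, 350 and 0 were called, with GC content and length from the bounded principal transcript (added after seeing the data) 266 and 0, and with the trends removed and the replicate block 408 and 1. Leaving out 1 library gave 431 to 2196 genes and 1 to 6 of the 10, and the log2 difference of the Hspe1 to Hspd1 ratio then ran from -0.0076 to 0.17. The labels do not say that replicate numbers pair the libraries, and across genes the differences of replicate 2 minus 1 in the genotypes had r = -0.151. With the replicate block 2117 genes and 6 of the 10 were called (5 higher and Hspa8 lower), and with a crossed pairing, added after seeing the data, 3036 and 7. No called log2 fold change changed sign, but 41 of 180 values of the 10 genes under the 18 alternatives lost their call and 4, all of Hspa8, gained one (both pairings, the block with the trends removed, and without Tdrd7 null replicate 1), and the cause was not tested. The replicate block and the crossed pairing without trend removal both took an infinite prior.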

Other observations

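The single low Hspa8 library has few parallels among abundant genes. Among the 636 genes that averaged 100 scaled reads or more, 2 lay at least 1.5-fold below the lowest of the other libraries in Tdrd7 null replicate 2, and they were Hspa8 and Tdrd7 itself. In control replicate 2 there was 1 such gene, Bfsp2, and in each of the other libraries 0. Over all 10696 tested genes there were 9 such genes for control replicate 1, 27 for control replicate 2, 13 for Tdrd7 null replicate 1 and 37 for Tdrd7 null replicate 2. This search was chosen after the values were seen.

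Genes outside the 10 with a heat shock element near their start were called in both directions. Beyond the 10 genes, 44 tested genes had a RefSeq window with the 3-unit motif. Of these, 5 rose and 5 fell (22.7% called, against 18.0% of all tested genes), and their median log2 fold change was -0.04. With the GC and length trends removed 1 rose and 0 fell, with a median of 0.00. Hsph1, Chordc1, Hspd1 and Hspe1, the 4 of the 10 genes with the motif, stood at 0.25, 0.43, 0.16 and 0.24 before and at 0.23, 0.20, 0.09 and 0.07 after. Hspa4 and Ahsa1, whose windows held no match, stood at 0.19 and 0.03 before and at 0.16 and -0.04 after. A link between the motif and the changes was not tested.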
